A study of Mus musculus with 24 samples.

Results

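Trp53, the gene of the transcription factor p53, and 7 genes linked to it in growth arrest (Cdkn1a, Mdm2, Ccng1, Gadd45a, Gadd45b, Trp53inp1 and Btg2) were followed through treatment with bortezomib, a drug that inhibits the proteasome. Their probes were chosen by gene symbol in the platform annotation, which gave 16 of 45281 probes. Of the 8 genes, 7 had a probe. The mRNA of Trp53 itself was not analysed here, because the annotation used names no probe for it. 14 of the 16 probes lay above background on at least 2 arrays, and 6 genes entered the tests, out of 10969 genes tested in all.

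RNA from 4 mouse cell lines, grown out of multiple myeloma (a cancer of plasma cells), was measured on 24 bead arrays of a single colour. The labels call 595sp VR and 638bm VR resistant to bortezomib and call 595sp and 638bm sensitive. All 4 lines carry Bcl-XL and Myc transgenes on a background of FVBN crossed with BL/6, so the controls carry both transgenes too, and the promoters that drive them are not given in the sources used here. A line gave 6 arrays: 1 untreated (0 h), 1 each after 2, 8 and 16 h in bortezomib at 33 nM, and 2 after 24 h. Each sensitivity class thus holds 2 lines, which are the replicates of the tests (n = 2 lines), and each line is a single line whose origin from 1 or several animals is not labelled. The age of the animals is not labelled either.

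p53 is a transcription factor that DNA damage and other stresses stabilise. In unstressed cells the ubiquitin ligase Mdm2 binds p53 and marks it for destruction by the proteasome, and p53 in turn switches on Mdm2, which closes a feedback loop. Among the other targets of p53, Cdkn1a encodes p21, an inhibitor of cyclin-dependent kinases. Gadd45a and Gadd45b encode small stress proteins that bind cell cycle and signalling proteins, and Ccng1, Trp53inp1 and Btg2 encode a cyclin-like protein, a stress-induced partner of p53 and an antiproliferative protein. The arrays measured RNA and not protein, so the amount of p53 protein was not seen.

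Between 15250 and 17362 probes, 33.7% to 38.3% of the total, lay above background per array. Of the plasma cell markers, Sdc1, Xbp1, Irf4, Slamf7 and Mzb1 were above background on 24 of 24 arrays, whereas Prdm1, Tnfrsf17 and Jchain were above background on 0. Cd3g, a T cell gene, was above background on all 12 arrays of 595sp VR and 595sp and on 0 arrays of the 638bm lines. Csf1r, a myeloid gene, was above background on 3 of 6 arrays of 595sp VR, 0 of 6 of 638bm VR, 6 of 6 of 595sp and 2 of 6 of 638bm, while Lyz2 and Adgre1 were above background on 0 of 24. Cd2, Cd3d and Cd3e were above background on 24, 7 and 3 arrays, Cd14 on 4 and Hba-a1 on 5 (all of 595sp), Itgam on 1, and Alas2 and the 4 stromal genes on 0. The part of these genes in the results below was not tested. For 638bm VR the time given as a sample characteristic disagrees with the time in the title on 4 arrays. The titles were used here, and results with the other times are given for some of the values they change. The array of 638bm VR titled 2 h, for example, carries 24 h as its characteristic. The first arrays of 595sp at all 5 times and untreated 595sp VR formed 1 run of 6 neighbouring columns whose log2 background, 5.45 to 5.54, lay below that of the other 18 arrays (5.86 to 6.19).

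Promoters are shown for Gadd45a, Mdm2, Ccng1 and Cdkn1a because each holds letters that match the sequence through which p53 binds DNA. Cdkn1a did not pass the main tests below. These promoters were picked for this match, and the part of p53 in the changes was not tested. p53 binds DNA as pairs of a short half-site. The p53 half-site consensus, whose pattern reads the same on both strands, was searched from 250 bases before to 50 bases after each start. Promoters came from RefSeq (build GRCm38.p6) and were found for 7 of the 8 genes, all but Trp53inp1, with 2 starts for Cdkn1a. A match is letters in a window and not a binding event. Half-sites are in capitals, and every sequence runs 5′ to 3′ on the strand of its gene.
Gadd45a, chr6:67037358-67037657, minus strand: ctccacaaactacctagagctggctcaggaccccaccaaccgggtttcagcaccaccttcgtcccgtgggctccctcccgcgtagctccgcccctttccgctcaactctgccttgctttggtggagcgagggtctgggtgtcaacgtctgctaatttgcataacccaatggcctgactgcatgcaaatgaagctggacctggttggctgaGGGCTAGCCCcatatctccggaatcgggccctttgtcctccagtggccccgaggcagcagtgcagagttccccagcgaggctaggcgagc
Mdm2, chr10:117710709-117711008, minus strand: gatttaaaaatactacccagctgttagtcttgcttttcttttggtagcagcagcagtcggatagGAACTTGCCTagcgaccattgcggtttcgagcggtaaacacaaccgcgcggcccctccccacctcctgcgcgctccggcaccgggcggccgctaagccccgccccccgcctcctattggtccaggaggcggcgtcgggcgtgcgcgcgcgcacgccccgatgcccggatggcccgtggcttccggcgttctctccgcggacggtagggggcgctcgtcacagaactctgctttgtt
Ccng1, chr11:40755237-40755536, minus strand: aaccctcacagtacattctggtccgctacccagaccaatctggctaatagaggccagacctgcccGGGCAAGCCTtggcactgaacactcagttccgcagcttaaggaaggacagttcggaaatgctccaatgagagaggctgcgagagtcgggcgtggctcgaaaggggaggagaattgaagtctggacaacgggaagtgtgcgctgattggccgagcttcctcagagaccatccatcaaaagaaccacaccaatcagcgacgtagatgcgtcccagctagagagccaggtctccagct
Cdkn1a, upstream start, chr17:29090729-29091028, plus strand: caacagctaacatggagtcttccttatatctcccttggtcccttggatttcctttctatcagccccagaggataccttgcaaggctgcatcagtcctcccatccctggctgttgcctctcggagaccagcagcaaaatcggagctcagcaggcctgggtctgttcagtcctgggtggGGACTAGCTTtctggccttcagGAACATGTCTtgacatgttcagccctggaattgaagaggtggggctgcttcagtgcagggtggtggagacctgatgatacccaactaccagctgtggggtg
The half-site of Gadd45a begins at base -40 from the start, that of Mdm2 at -186 and that of Ccng1 at -185. The upstream start of Cdkn1a has 2 half-sites, which begin at -73 and -51. The promoters of Gadd45b and Btg2 and the second start of Cdkn1a (chr17:29093519-29093818) held none, and the promoter of Trp53 held 1. Over 32851 RefSeq promoters of the same length, 8.36% held the half-site. A TATAAA box, present in 13.6% of all promoters on either strand, stood at -46 in Gadd45b.

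After 24 h in bortezomib 3 of the 6 genes were higher than untreated in the sensitive lines: Gadd45a, Mdm2 and Ccng1. No gene of the 6 was called in the resistant lines at any time. The sensitive lines had 0 of 6 genes called at 2 h, 0 at 8 h and 1 (Gadd45a, higher) at 16 h, beside 0.0547%, 5.41% and 9.32% of all genes tested (4.97% as higher at 16 h). At 24 h the count was 3 higher and 0 lower, beside 23.4% of all genes called and 13.3% called as higher. In the resistant lines 0 of 6 were called at 2, 8, 16 and 24 h, beside 1.24%, 4.08%, 1.39% and 1.51% of all genes (limma, Benjamini-Hochberg adjusted p under 0.05). At an unadjusted p under 0.05, 5 of the 6 passed in the sensitive lines at 24 h, whereas 2, 1, 1 and 0 passed in the resistant lines at 2, 8, 16 and 24 h. The median change of the 6 genes at 24 h was -0.00 log2 units in the resistant lines, where that of all genes was 0.01, and 0.71 in the sensitive lines, where that of all genes was 0.06. All values below are normalised log2 signals or differences of them, and less RNA per cell cannot be told apart from fewer cells that hold it. Within a line all changes share its single untreated array, and since only 0 h was untreated, the drug and the time in culture cannot be told apart.

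**Figure D1:**
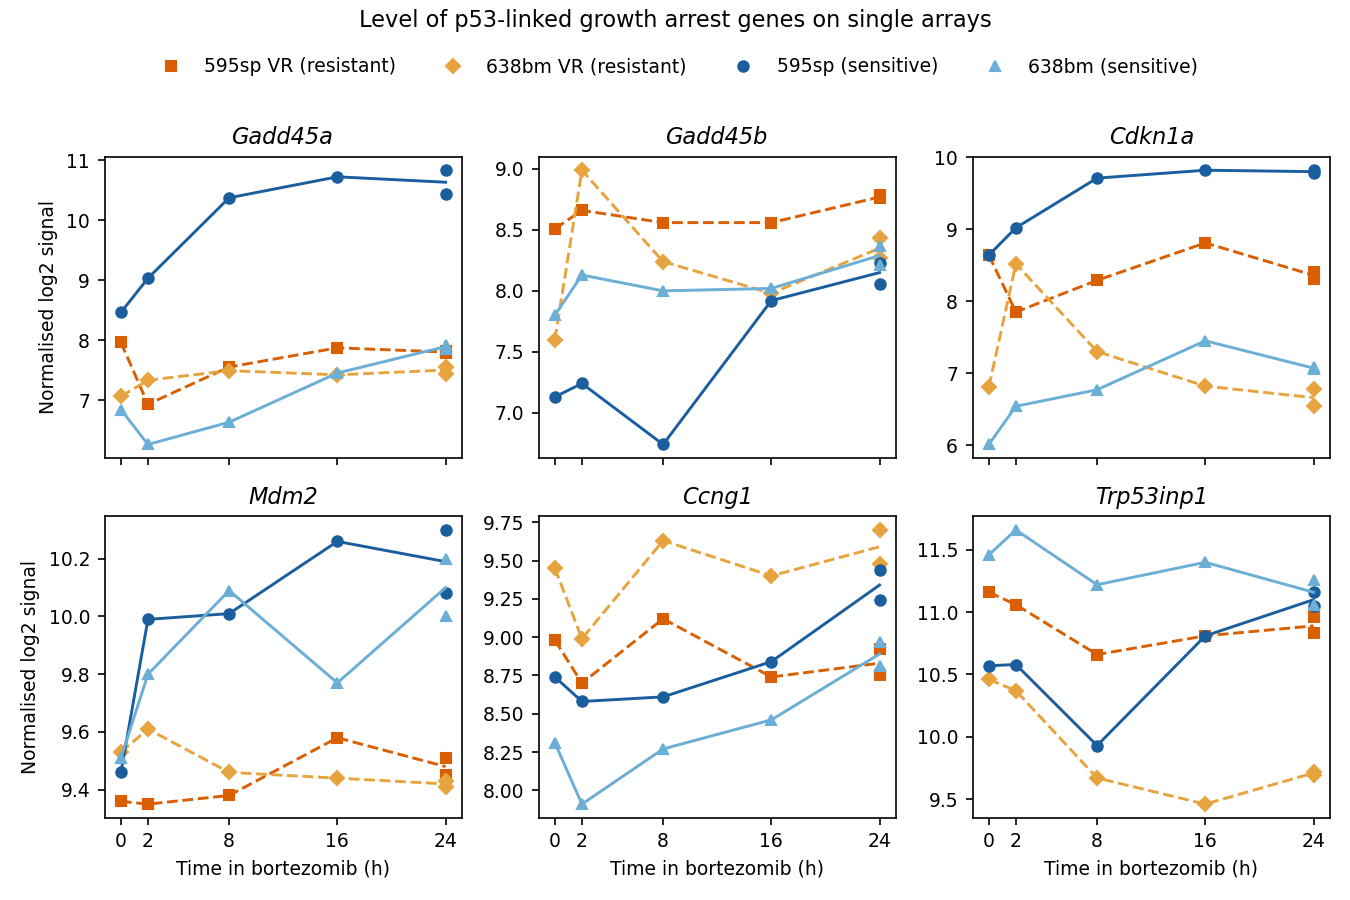
Normalised log2 signal (y axis) against hours in bortezomib (x axis) for the 6 genes tested. Squares and diamonds with dashed lines are the resistant lines 595sp VR and 638bm VR, circles and triangles with solid lines the sensitive lines 595sp and 638bm; each symbol is 1 array and the line runs through the mean of both arrays at 24 h. Gadd45a in 595sp reached 10.83, and Mdm2 lay at 9.77 to 10.30 in treated sensitive lines against at most 9.61 on resistant arrays. The test of the difference between the classes called none of the 6 genes.

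Mdm2 is the ubiquitin ligase that holds p53 down and is itself a p53 target. On every treated array of the sensitive lines it lay above the untreated array of the same line. In 595sp VR it stood at 9.36, 9.35, 9.38 and 9.58 at 0, 2, 8 and 16 h and at 9.45 and 9.51 on the 24 h arrays. In 638bm VR the levels were 9.53, 9.61, 9.46 and 9.44, then 9.43 and 9.41 at 24 h. Neither resistant line left a band of 0.23 log2 units. 595sp had 9.46, 9.99, 10.01 and 10.26 at 0 to 16 h and 10.30 and 10.08 at 24 h. 638bm had 9.51, 9.80, 10.09 and 9.77, then 10.20 and 10.00 at 24 h. Untreated, all 4 lines lay within 9.36 to 9.53, and every treated sensitive array lay above every resistant array. How many of all genes separate the classes in this way was not counted, and each class holds 2 lines. The test of the 24 h response of resistant minus sensitive lines did not call Mdm2 (-0.66 ± 0.24, limma adjusted p = 0.189). The change at 24 h was 0.00 ± 0.17 in the resistant lines (SE, adjusted p = 0.996) and 0.66 ± 0.17 in the sensitive lines, 1.58-fold (limma adjusted p = 0.0122). Both arrays of a line at 24 h differed by at most 0.22. At 2, 8 and 16 h the sensitive lines had 0.41, 0.57 and 0.53 ± 0.17, with adjusted p of 0.532, 0.0661 and 0.0657, so the earlier values were not called.

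Mdm2 had a second probe above background, and a further probe lay above background on 0 of 24 arrays. In a fit on single probes the second probe gave -0.13 ± 0.17 in resistant lines at 24 h and 0.58 ± 0.17 in sensitive lines (limma adjusted p = 0.829 and 0.0259). That probe also passed in sensitive lines at 8 h (0.65, adjusted p = 0.0422) and 16 h (0.71, adjusted p = 0.0203), where the probe that stands for the gene did not.

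Gadd45a, a stress protein that binds PCNA and an upstream kinase of the p38 and JNK pathways, had the largest fitted change of the 6 genes in sensitive lines at 16 and 24 h. In 595sp VR its levels were 7.96, 6.93, 7.55 and 7.87 at 0, 2, 8 and 16 h and 7.78 and 7.81 at 24 h. In 638bm VR they were 7.06, 7.33, 7.49 and 7.42, then 7.55 and 7.44. The resistant lines ended at 24 h within 0.44 of their untreated level on average. In 595sp the levels were 8.46, 9.03, 10.37 and 10.72, then 10.83 and 10.43, so that every array from 8 h on was at 10.37 or more. In 638bm they were 6.84, 6.26, 6.63 and 7.45, then 7.85 and 7.92, with the lowest level at 2 h. The treated arrays of 638bm overlap those of the resistant lines, and those of 595sp lie above all others. Per line the change at 24 h was -0.16 in 595sp VR, 0.44 in 638bm VR, 2.17 in 595sp and 1.05 in 638bm. The fit gave 0.14 ± 0.36 in resistant lines at 24 h (adjusted p = 0.915) and 1.61 ± 0.36 in sensitive lines, 3.06-fold (limma adjusted p = 0.00456). At 16 h the sensitive lines had 1.44 ± 0.36, 2.71-fold (limma adjusted p = 0.0203).

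The second Gadd45a probe gave 0.24 ± 0.27 in resistant lines and 1.80 ± 0.27 in sensitive lines at 24 h (limma adjusted p = 0.79 and 3.21e-04). Within the run of columns that holds every first array of 595sp, the 24 h change of Gadd45a was 2.37. On the second 24 h arrays, which lie in 1 run of columns for all 4 lines, Gadd45a had 7.81 in 595sp VR, 7.44 in 638bm VR, 10.43 in 595sp and 7.92 in 638bm.

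Ccng1, which encodes cyclin G1, a p53 target that acts back on Mdm2, rose in the sensitive lines at 24 h. Its levels in 595sp VR were 8.98, 8.70, 9.12 and 8.74 at 0, 2, 8 and 16 h and 8.92 and 8.75 at 24 h. Those in 638bm VR were 9.45, 8.99, 9.63 and 9.40, then 9.48 and 9.70. Each resistant line varied by no more than 0.63 between times. Those in 595sp were 8.74, 8.58, 8.61 and 8.84, then 9.44 and 9.24. Those in 638bm were 8.31, 7.91, 8.27 and 8.46, then 8.97 and 8.81. On the probe used for the gene, all 4 lines were lowest at 2 h and the sensitive lines were highest at 24 h. On the other 2 probes, 638bm VR had 0.19 and 0.03 and 595sp had 0.09 and 0.27 at 2 h against 0 h, so the low point was not shared by those probes in these lines. The levels of the classes overlap, and 638bm VR was the highest line at every time. The change at 24 h was -0.00 ± 0.16 in resistant lines (adjusted p = 0.996) and 0.59 ± 0.16 in sensitive lines, 1.51-fold (limma adjusted p = 0.0145). It was 0.60 in 595sp and 0.58 in 638bm, so both lines moved by nearly the same amount.

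All 3 Ccng1 probes passed in sensitive lines at 24 h, with 0.59, 0.79 and 0.93 in the fit on single probes (limma adjusted p = 0.0162, 0.00327 and 0.00312). In resistant lines they had -0.00, 0.33 and 0.13, with adjusted p of 0.996, 0.423 and 0.846. At 8 h the probe used had -0.08 in sensitive lines and the other 2 had 0.43 and 0.28, and at 16 h they had 0.12, 0.53 and 0.61. None of these earlier values in sensitive lines was called (adjusted p of 0.836, 0.155 and 0.458 at 8 h, and 0.735, 0.0672 and 0.0678 at 16 h). Over all 4 lines at 8 h the probes had 0.04, 0.46 and 0.31, and the second was called (limma adjusted p = 0.875, 0.0183 and 0.155). Over the mean of all 4 lines at 24 h the other 2 probes passed (0.56 and 0.53, limma adjusted p = 0.0036 and 0.013), while the probe that stands for the gene had 0.29 (adjusted p = 0.0751 in the fit on genes).

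Cdkn1a, the gene of the kinase inhibitor p21, moved in the same direction in both sensitive lines on the probe used, without passing the test. 595sp VR had 8.64, 7.85, 8.29 and 8.81 at 0, 2, 8 and 16 h and 8.41 and 8.31 at 24 h. 638bm VR had 6.81, 8.52, 7.30 and 6.82, then 6.54 and 6.78. The second of these series peaks on 1 array, the one titled 2 h, and otherwise stays within 6.54 to 7.30. 595sp had 8.64, 9.02, 9.71 and 9.82, then 9.78 and 9.82. 638bm had 6.01, 6.54, 6.77 and 7.45, then 7.06 and 7.08. On this probe every treated array of a sensitive line lay above that line's untreated array. The 595sp lines lay above the 638bm lines apart from the peak of 638bm VR. On a further probe, above background on 15 of 24 arrays, 638bm had 0.01 at 2 h and -0.18 at 8 h against 0 h. At 24 h the change was -0.21 ± 0.42 in resistant lines (adjusted p = 0.88) and 1.11 ± 0.42 in sensitive lines, 2.16-fold (limma adjusted p = 0.0703, 95% interval 0.21 to 2.01). At 16 h the sensitive lines had 1.31 ± 0.42 (adjusted p = 0.0649). The SE is set by all 4 lines. With the characteristic's times for 638bm VR it was 0.279, with limma adjusted p of 0.0111 at 16 h and 0.0105 at 24 h. Those times place the array titled 2 h at 24 h. Over the 13 alternatives that keep all lines, the 24 h change in resistant lines ranged from -0.25 to 0.28 and changed sign in 3. The mean over all 4 lines at 24 h was 0.45 ± 0.30 (limma adjusted p = 0.313) and passed in 1 of the 13. The other 2 probes gave 0.77 and 0.40 in sensitive lines at 24 h (limma adjusted p = 0.0886 and 0.354).

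The peak of 638bm VR on the array titled 2 h was present on every probe of Cdkn1a, at 1.71, 1.11 and 0.83 above the untreated array. The same probes had -0.80, -0.28 and -0.45 in 595sp VR at 2 h, where the treated and untreated arrays lay in different runs of columns. Gadd45b behaved alike on that array, with 1.38 and 0.71 on its probes, against 0.16 and 0.19 in 595sp VR. This is 1 array of 1 line with no replicate. Over both resistant lines at 2 h Cdkn1a had 0.46 ± 0.42 and Gadd45b 0.77 ± 0.28 (limma adjusted p = 0.672 and 0.189). Without 595sp VR the value of Cdkn1a in the remaining resistant line was 1.72, with limma adjusted p = 0.0378, the lone line being assumed to vary like the others.

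Gadd45b, a relative of Gadd45a that NF-kB signalling also switches on, ended higher at 24 h in all 4 lines. 595sp VR had 8.51, 8.66, 8.56 and 8.56 at 0, 2, 8 and 16 h and 8.79 and 8.76 at 24 h. 638bm VR had 7.60, 8.99, 8.24 and 7.98, then 8.43 and 8.27. The first hardly moved and the second peaked at 2 h. 595sp had 7.13, 7.24, 6.74 and 7.92, then 8.06 and 8.23. 638bm had 7.80, 8.13, 8.00 and 8.02, then 8.37 and 8.21. At 24 h the 4 lines lay between 8.06 and 8.79, closer together than the 7.13 to 8.51 seen untreated. The mean change over all 4 lines at 24 h was 0.63 ± 0.20, 1.55-fold (limma adjusted p = 0.0309, n = 4 lines). By class it was 0.50 ± 0.28 in resistant and 0.75 ± 0.28 in sensitive lines (adjusted p = 0.449 and 0.0598). The call over all 4 lines held without 638bm (adjusted p = 0.0219) and was lost without 595sp VR, 638bm VR or 595sp (adjusted p = 0.0868, 0.241 and 0.118). The second probe, above background on 14 of 24 arrays, gave a mean of 0.23 (limma adjusted p = 0.219).

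Over the mean of all 4 lines, 2 of the 6 genes were called at 24 h, both higher, beside 21.9% of all genes called and 12.3% called as higher. These were Gadd45b and Gadd45a (0.87 ± 0.25, 1.83-fold, limma adjusted p = 0.0218). The mean of Gadd45a is made of unlike parts, since 595sp VR had -0.16 and 638bm VR 0.44, while 595sp had 2.17 and 638bm 1.05. Its call held without 638bm (adjusted p = 0.00387) and was lost without 595sp VR, 638bm VR or 595sp (adjusted p = 0.0914, 0.232 and 0.0761). At 8 h 1 gene was called, Trp53inp1, lower, beside 14.4% of all genes called and 8.21% called as lower.

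Trp53inp1, whose protein binds p53 and takes part in autophagy, fell over all 4 lines at 8 h on the probe used for the gene, by a call that few other settings kept. In 595sp VR the levels were 11.16, 11.06, 10.66 and 10.81 at 0, 2, 8 and 16 h and 10.83 and 10.96 at 24 h. In 638bm VR they were 10.46, 10.37, 9.67 and 9.46, then 9.72 and 9.69. On this probe both resistant lines stayed below their untreated level after 2 h. In 595sp they were 10.57, 10.58, 9.93 and 10.81, then 11.05 and 11.16. In 638bm they were 11.46, 11.66, 11.22 and 11.40, then 11.06 and 11.26. At 8 h all 4 lines lay below 0 h on this probe, and at 24 h 595sp alone lay above it. The mean over all 4 lines at 8 h was -0.54 ± 0.17 (limma adjusted p = 0.0478), made of -0.49 in 595sp VR, -0.79 in 638bm VR, -0.63 in 595sp and -0.24 in 638bm. The resistant lines had -0.64, -0.67 and -0.51 ± 0.24 at 8, 16 and 24 h (adjusted p = 0.163, 0.203 and 0.369). The sensitive lines had -0.44, 0.09 and 0.12 ± 0.24, with adjusted p of 0.326, 0.87 and 0.78. The second probe gave -0.35 ± 0.24 over all 4 lines at 8 h (limma adjusted p = 0.37), so the fall was called on 1 of 2 probes. On that second probe 595sp VR lay above its untreated level by 0.21, 0.36 and 0.64 at 8, 16 and 24 h. On the probe used, the call at 8 h held in 4 of 13 alternatives. It held without 638bm (-0.64, adjusted p = 0.0228) and was lost without 595sp VR (-0.61, adjusted p = 0.188), 638bm VR (-0.47, adjusted p = 0.343) or 595sp (-0.44, adjusted p = 0.0937).

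Btg2, an antiproliferative p53 target that works with the machinery that removes the poly(A) tail, has 1 probe here. That probe was above background on 0 of 24 arrays, with raw signals of 43.6 to 70.1 (median 62.2) that lay 0.13 to 0.72 log2 units under the threshold. Its level therefore has only an upper bound in every line and at every time, and no fold was computed.

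**Figure D2:**
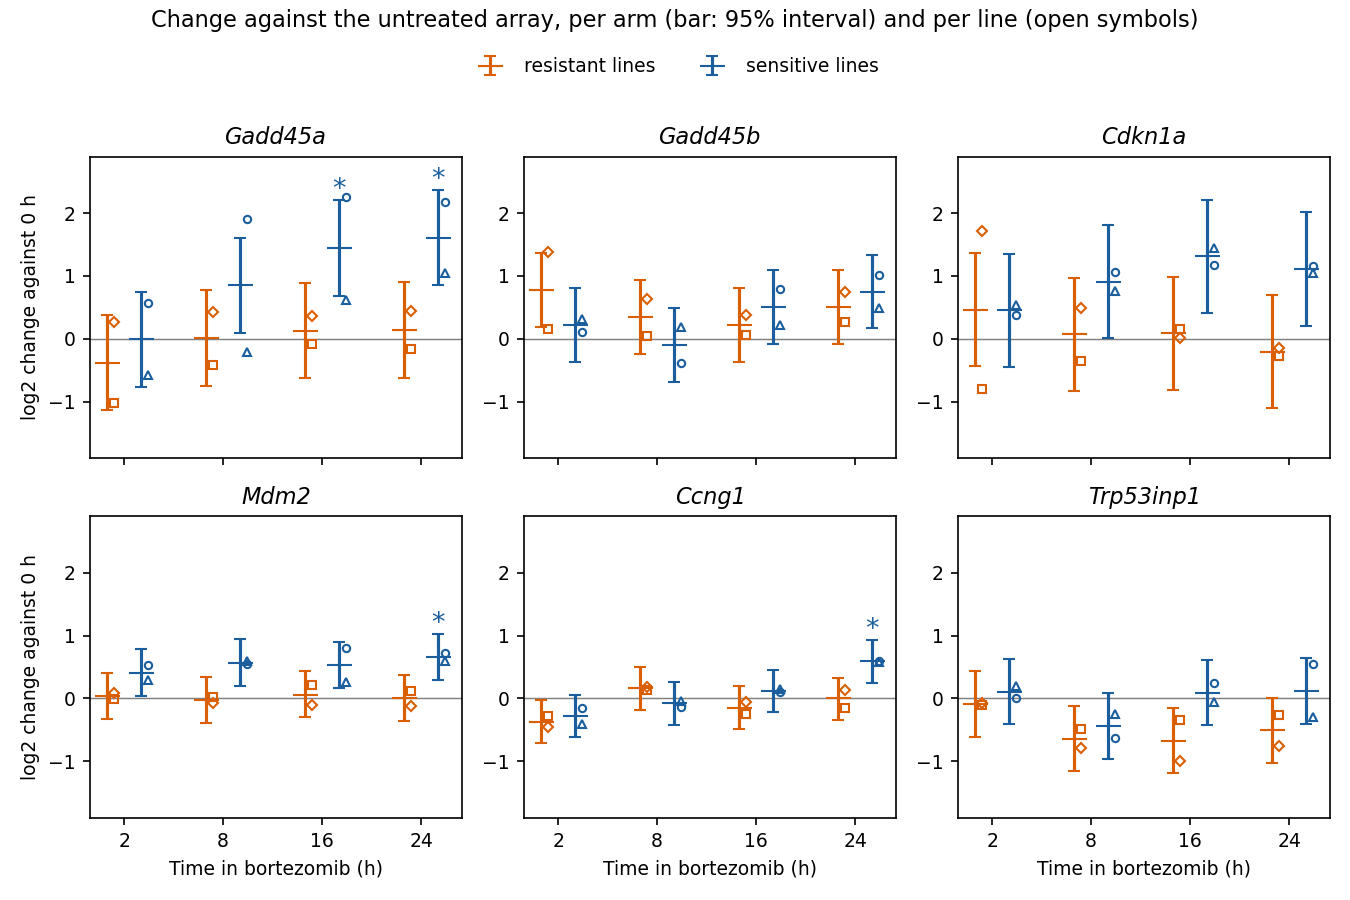
log2 change against the untreated array (y axis) at 2, 8, 16 and 24 h (x axis) for the 6 genes. Horizontal ticks with bars are the limma estimate and its 95% interval for the resistant lines (left of each pair) and the sensitive lines (right); open symbols are single lines, shaped as in the plot of levels, and stars mark adjusted p under 0.05. Stars stand at Gadd45a at 16 and 24 h and at Mdm2 and Ccng1 at 24 h, all for sensitive lines, where Gadd45a reaches 1.61 against 0.14 in resistant lines.

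The direct test of the difference between the classes called none of the 6 genes at any time. At 2, 8 and 16 h it called 0 of all genes as well (0%), with 309, 762 and 1189 of 10969 genes at an unadjusted p under 0.05. At 24 h it called 0 of the 6 genes, beside 1.26% of all genes, and 4 of the 6 had an unadjusted p under 0.05. The 24 h response of resistant minus sensitive lines was -1.47 ± 0.51 for Gadd45a (95% interval -2.55 to -0.40, limma adjusted p = 0.152). It was -0.66 ± 0.24 for Mdm2 (-1.17 to -0.14, adjusted p = 0.189) and -0.59 ± 0.23 for Ccng1 (-1.07 to -0.12, adjusted p = 0.195). For Cdkn1a it was -1.32 ± 0.60 (-2.59 to -0.05, adjusted p = 0.275), and it ranged from -1.34 to -0.83 over the 13 alternatives that keep all lines. These 4 intervals lie below 0 before adjustment over all genes and do not pass after it. Trp53inp1 had -0.63 ± 0.34 (-1.36 to 0.11) and Gadd45b -0.25 ± 0.39 (-1.08 to 0.58). The median difference of the 6 genes at 24 h was -0.64 and that of all genes -0.06.

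How far these results rest on single lines differs by gene. Without 595sp the sensitive arm is 638bm alone, and the 24 h changes became 1.05 for Gadd45a, 0.59 for Mdm2 and 0.58 for Ccng1, with limma adjusted p of 0.0656, 0.0822 and 0.0929. Without 638bm they were 2.17, 0.73 and 0.60, with adjusted p of 0.00216, 0.0309 and 0.0678. Without either resistant line, which leaves fewer values for the shared spread, Mdm2 and Ccng1 kept their size (0.66 and 0.59) at adjusted p of 0.0519 and 0.0539, and Gadd45a passed (0.0204). Gadd45a at 16 h was called in 1 of the 4 runs, without 638bm (2.26, adjusted p = 0.00849). It was 1.44 without either resistant line (adjusted p = 0.0712) and 0.61 without 595sp (adjusted p = 0.324). Cdkn1a, not called with all lines, was called without either resistant line, at 1.31 ± 0.20 at 16 h and 1.11 ± 0.20 at 24 h (limma adjusted p = 0.00999 and 0.00612). The difference between classes for Gadd45a at 24 h was called without 638bm (-2.03, adjusted p = 0.0207) and with the run of columns as a term of the fit on single arrays (-1.67 ± 0.44, adjusted p = 0.0388).

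Untreated, none of the 6 genes differed between resistant and sensitive lines by the rule used, beside 2.69% of all genes called. That rule asked for an adjusted p under 0.05 and for at least 1 log2 unit the same way in both origin pairs, and 0 of the 6 genes had even an unadjusted p under 0.05. Ccng1 was higher in the resistant line of both pairs, at 8.98 in 595sp VR against 8.74 in 595sp and at 9.45 in 638bm VR against 8.31 in 638bm (0.69 ± 0.36, limma adjusted p = 0.29). Gadd45b had 8.51 in 595sp VR against 7.13 in 595sp, and 7.60 in 638bm VR against 7.80 in 638bm. Trp53inp1 had 11.16 in 595sp VR against 10.57 in 595sp, and 10.46 in 638bm VR against 11.46 in 638bm. The last 2 genes went opposite ways in the pairs. Mdm2 differed by -0.10 and 0.03 (resistant minus sensitive), less than the 0.22 between paired 24 h arrays.

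**Figure D3:**
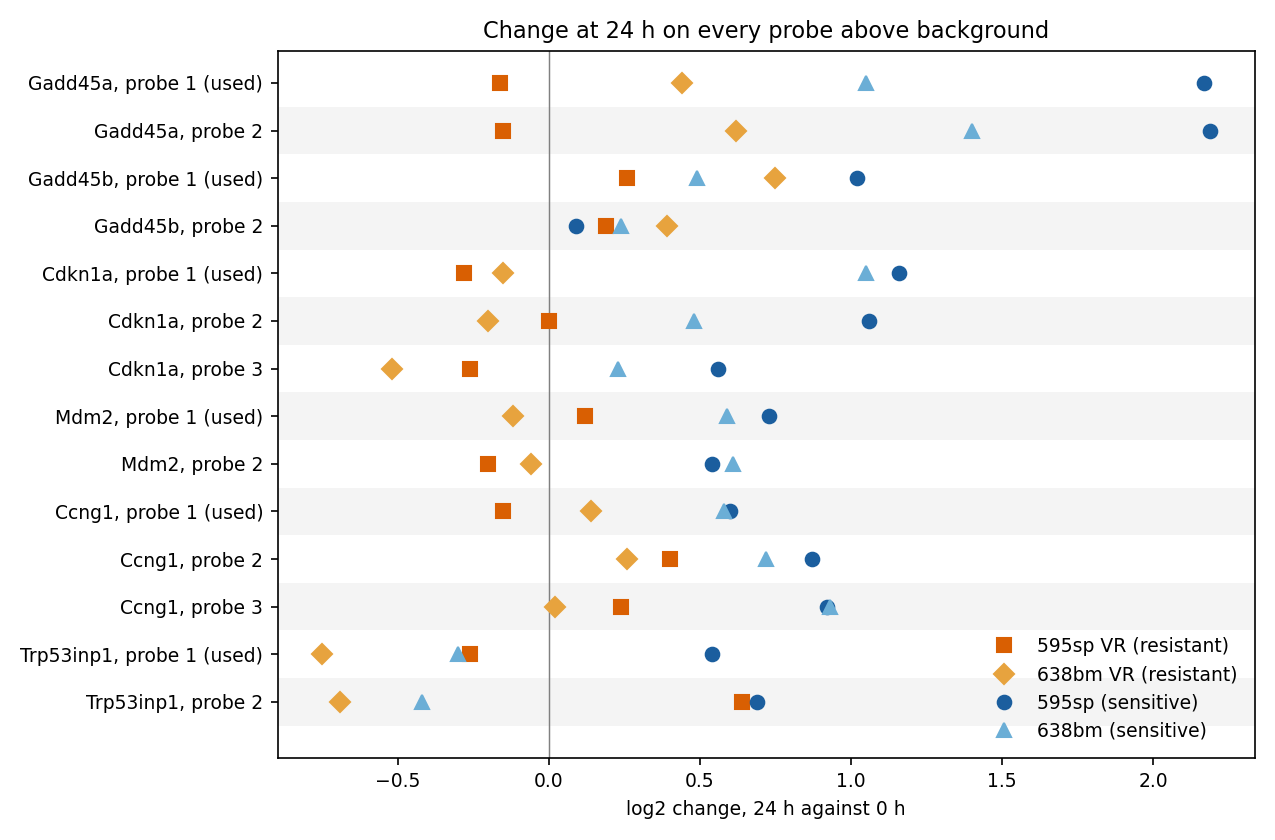
log2 change from 0 h to 24 h (x axis) on each of the 14 probes above background (y axis, the probe that stands for its gene marked as used). Squares and diamonds are the resistant lines 595sp VR and 638bm VR, circles and triangles the sensitive lines 595sp and 638bm. On all probes of Gadd45a, Cdkn1a, Mdm2 and Ccng1 both sensitive lines lie to the right of both resistant lines. On the probes of Gadd45b and Trp53inp1 they do not. How many of all probes order the lines in this way was not counted, and each class holds 2 lines. The test of the difference between the classes at 24 h called none of Gadd45a, Cdkn1a, Mdm2 and Ccng1.

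Across the 20 values of line and time, each centred on its line, Pearson's r was 0.62 between Cdkn1a and Mdm2. It was 0.61 between Cdkn1a and Gadd45a and 0.63 between Mdm2 and Gadd45a. Gadd45b had 0.55 with Cdkn1a, 0.47 with Mdm2 and 0.37 with Gadd45a. The r typical of all gene pairs was not computed. Ccng1 had 0.57 with Gadd45a but 0.03 with Cdkn1a. Trp53inp1 had between -0.10 and 0.18 with Cdkn1a, Mdm2, Ccng1 and Gadd45a, and 0.45 with Gadd45b. These are descriptions over values that share 4 untreated arrays and the same drug course. By the same measure the gene most like Gadd45a was Zswim4 (0.94), followed by Sbds (0.91) and Mrpl9 (0.91). Supt6 (0.91), Dhx38 (0.89) and Paf1 (0.86) were most like Mdm2. Agfg1 (0.82), Kdm1a (0.81) and Gtf2ird1 (0.80) were most like Cdkn1a, and Psmd9, Dnajc17 and Batf (0.88 each) were most like Ccng1. Gadd45b ran closest to Marchf2 (0.87), Crybg1 (0.85) and Lgals3 (0.84). Trp53inp1 ran closest to Pdcd4 (0.92), Ctdsp2 (0.92) and Sdc4 (0.91). None of the 6 genes tested was among these nearest patterns. Trp53 and Btg2 were not in the search.

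Other known targets of p53 act in cell death, repair and metabolism. Of 40 listed genes 32 were tested, and 0 were called in the resistant lines at any of the 4 times, beside 1.24% to 4.08% of all genes. The direct test between the classes also called 0 of the 32 at each time. Of all genes it called 0% at 2, 8 and 16 h and 1.26% at 24 h. Over the mean of all 4 lines 3 were higher and 3 lower at 8 h, beside 14.4% of all genes called. At 24 h 6 were higher and 5 lower over that mean, beside 21.9% of all genes called. In sensitive lines at 24 h 3 were higher and 6 lower, 9 of 32 beside 23.4% of all genes called, with a list median of 0.04 beside 0.06 for all genes. The death receptor Fas was above background on 4 of 4 treated arrays and 0 of 2 untreated arrays, so its mean rise over both sensitive lines is at least 1.77-fold (limma adjusted p = 0.0041). That bound sets the mean of the treated arrays against the lowest level above background on the untreated arrays. The sensitive lines were unlike, with 0.61 in 595sp and 2.03 in 638bm, beside 0.48 in 595sp VR and 0.80 in 638bm VR. Fas was above background on only 7 arrays in all. It thus entered the tests through arrays on which it was high, and its p-value is no independent support. Bbc3, which encodes the death protein PUMA, had 0.90 ± 0.23 in sensitive lines (limma adjusted p = 0.00961). Apaf1, the core of the apoptosome, had 0.67 ± 0.20 (limma adjusted p = 0.0216). Among the lower genes were Steap3, a metalloreductase (-0.98 ± 0.23), the phosphatase gene Ptprv (-0.91 ± 0.22), the thiamine transporter Slc19a2 (-0.74 ± 0.19) and Rps27l (-0.49 ± 0.16), with limma adjusted p of 0.00608, 0.00792, 0.011 and 0.0345. The polo-like kinases went apart at 8 h in sensitive lines, Plk3 at 1.15 ± 0.29 and Plk2 at -1.36 ± 0.26 (limma adjusted p = 0.0298 and 0.00611). Plk3 rose in every line at 8 h, by 1.55 in 595sp, 1.49 in 595sp VR, 0.75 in 638bm and 0.40 in 638bm VR. The fit gave Plk3 0.94 ± 0.29 in resistant lines and 1.05 ± 0.20 over all 4 lines (limma adjusted p = 0.0819 and 0.00348). For Plk2 it gave -0.32 ± 0.26 in resistant lines and -0.84 ± 0.18 over all 4 lines (limma adjusted p = 0.541 and 0.0062). Plk2 was also the only gene of this list called between untreated lines, 1 of 32 beside 2.69% of all genes. It was lower in resistant lines by the fit (-1.96 ± 0.39, limma adjusted p = 0.0152), and its probe was above background on 20 of 24 arrays.

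**Figure D4:**
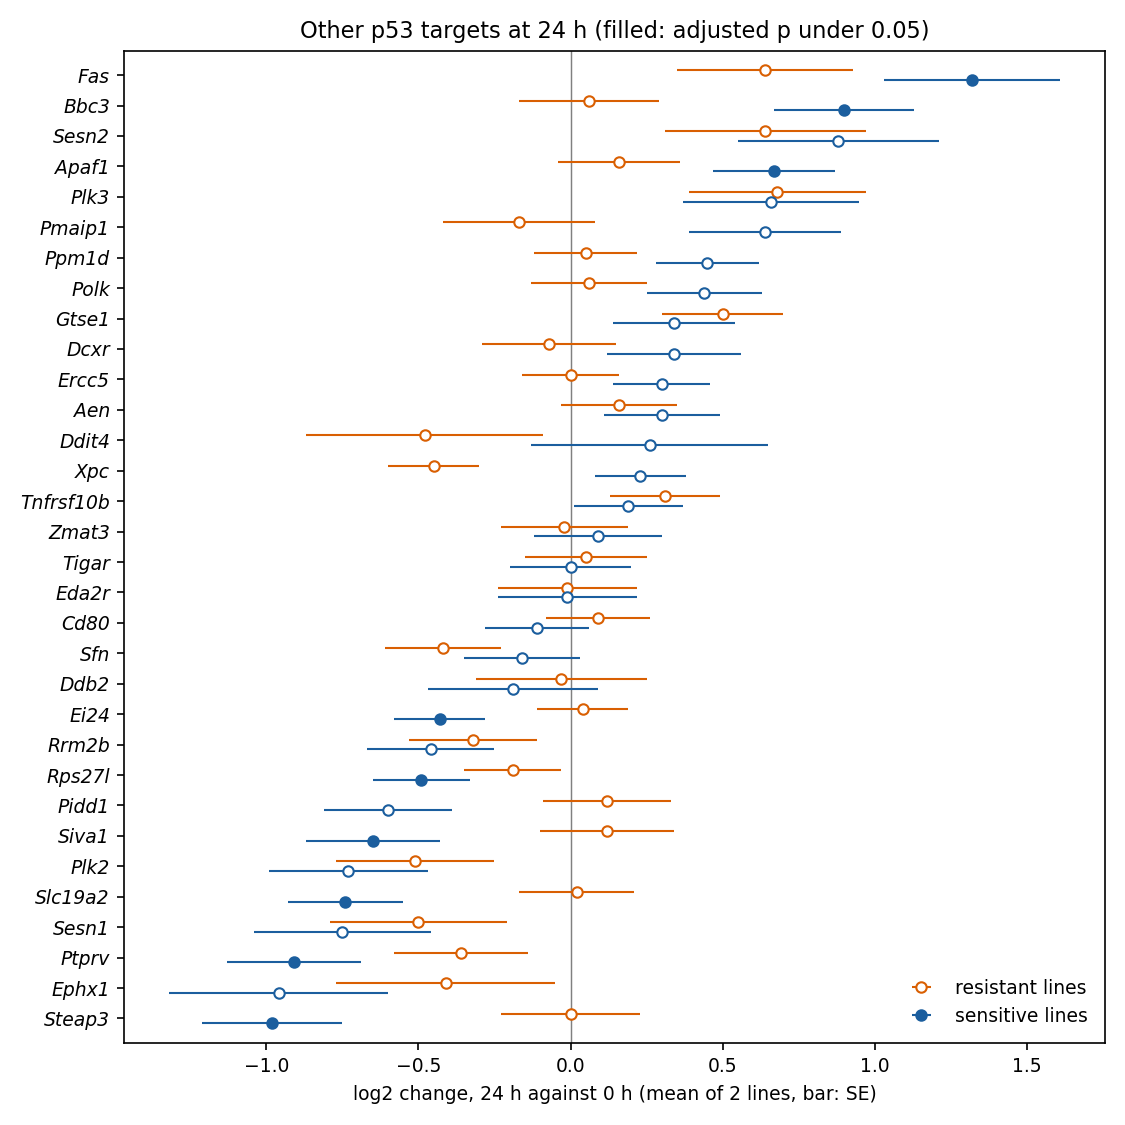
log2 change from 0 h to 24 h (x axis, mean of 2 lines, bar: SE) of the 32 other p53 targets tested, ordered by the change in sensitive lines. Orange symbols, drawn above, are the resistant lines and blue symbols the sensitive lines; filled symbols passed at an adjusted p under 0.05. The 9 filled symbols are all of sensitive lines, 3 to the right of 0 (Fas, Bbc3 and Apaf1) and 6 to the left. The test of the difference between the classes at 24 h called 0 of the 32. The untreated level of Fas is not above background, so its plotted value is no exact size.

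Genes that act on p53 or on its destruction were tested for 22 of 24 listed. In sensitive lines at 24 h 4 were higher and 2 lower, 6 of 22 beside 23.4% of all genes, and in resistant lines 0 were called at any time. The higher genes were Trp53bp1, a damage response adaptor (0.63), the ubiquitin ligases Rffl (0.69) and Rchy1 (0.77), and the acetyltransferase Kat5 (0.57), with limma adjusted p of 0.0139, 0.0143, 0.0342 and 0.0479. The lower genes were the kinase Atm (-0.70) and Mdm4, the partner of Mdm2 (-0.60), with limma adjusted p of 0.00721 and 0.0288. Mdm4 thus fell in the lines and at the time at which Mdm2 rose. A link between these changes was not tested, and the Mdm4 probe was above background on 19 of 24 arrays. At 8 h Cdkn2a, whose products include an inhibitor of Mdm2, fell in sensitive lines (-0.90 ± 0.21, limma adjusted p = 0.0228). The list median at 24 h was 0.05 in resistant and 0.25 in sensitive lines, beside 0.01 and 0.06 for all genes. Between the classes the direct test called 0 of the 22 at any time, beside at most 1.26% of all genes.

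Among 14 tested relatives of the genes studied, Gadd45g, the remaining member of the Gadd45 family, was the only one called in sensitive lines, 1 of 14 at 16 h and at 24 h beside 9.32% and 23.4% of all genes. It had 0.98 ± 0.23 at 16 h and 0.95 ± 0.23 at 24 h (limma adjusted p = 0.0163 and 0.00848), with 0.96 in 595sp and 0.93 in 638bm at 24 h, and 0.18 in 595sp VR and -0.16 in 638bm VR. Over all 4 lines at 8 h, 4 of the 14 relatives fell, beside 8.21% of all genes called as lower: the kinase inhibitors Cdkn1b (-0.61) and Cdkn2d (-0.78), Btg1 (-0.65) and Ccng2 (-0.68), with limma adjusted p of 0.00979, 0.021, 0.0159 and 0.0463. The direct test between the classes called 0 of the 14 at any time, beside at most 1.26% of all genes.

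Of the kinases and cyclins that p21 binds, together with PCNA, 11 of 12 were tested. In sensitive lines at 24 h 0 were higher and 4 lower, beside 23.4% of all genes called and 1106 of 10969 called as lower, and the list median was -0.48. The D-type cyclins, which carry cells through G1, made up 3 of these: Ccnd1 (-1.47 ± 0.26), Ccnd2 (-0.95 ± 0.27) and Ccnd3 (-0.75 ± 0.22), with limma adjusted p of 8.55e-04, 0.0174 and 0.0228. Their partner kinase Cdk4 had -0.49 ± 0.17 (limma adjusted p = 0.0472). In resistant lines Ccnd2 was the only call, at 8 h (-1.07 ± 0.27, limma adjusted p = 0.0335). Ccnd1 changed by -1.18 in 595sp VR, -0.35 in 638bm VR, -1.65 in 595sp and -1.29 in 638bm at 24 h, so that 595sp VR moved nearly as far as 638bm. Ccnd2 changed by -1.12 in 595sp VR, -0.91 in 638bm VR, -1.48 in 595sp and -0.42 in 638bm, so that both resistant lines lay below 638bm. Ccnd3 changed by -0.53 in 595sp VR, 0.10 in 638bm VR, -0.41 in 595sp and -1.09 in 638bm, so that 595sp VR fell further than 595sp. Over the mean of all 4 lines at 24 h Ccnd1, Ccnd2 and Ccnd3 had -1.12, -0.98 and -0.48 (limma adjusted p = 5.57e-04, 0.00181 and 0.0368). At 8 h they had -0.87, -0.90 and -0.65 (limma adjusted p = 0.0051, 0.00514 and 0.0126). Pcna was higher over the mean of all 4 lines at 24 h (0.57 ± 0.18, limma adjusted p = 0.0348). That mean is made of 0.34 in 595sp VR, 0.87 in 638bm VR, 1.04 in 595sp and 0.04 in 638bm, so 638bm hardly moved. The median of this list in resistant lines at 24 h was 0.17. Between the classes the direct test called 0 of the 11 at any time, beside at most 1.26% of all genes.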

How the data were processed

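Total RNA was amplified, labelled with biotin and read on Illumina mouse bead arrays, per the labels' protocols. The deposited table holds 1 average bead signal per probe and array, an intensity on a linear scale with no normalization, per the file headers, and no detection p-values or control probes. A second deposited table of the authors' processed intensity values (all columns with median 64.4) served as an alternative. The study's 8 genes and the lists were chosen with earlier results of these data known.

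Signals were corrected with normexp (limma 3.58.1, R 4.3.3; offset 16), quantile normalized and put on the log2 scale. The offset shrinks the changes of dim genes. A probe was above background where its log2 signal passed the array's mode by 2.326 times the SD of the lower side, mirrored. Probes had to pass on at least 2 arrays, which 21543 did, and 17969 of these had 1 symbol. Of all probes, 34885 had 1 symbol in the platform annotation, 18 several and 10378 none, and the gene numbers of 34807 are in the RefSeq table given. A gene was represented by its brightest probe on average (4528 genes had a choice). Both 24 h arrays of a line were averaged, leaving 20 values. Responses were fitted with limma (lmFit, eBayes) with terms for cell line and for time within each sensitivity class (degrees of freedom 8 residual, 7.68 prior). Untreated lines were fitted with origin in place of cell line (9 and 2.93), where SEs borrow from treated times. P-values were adjusted by Benjamini-Hochberg over all genes, in each of 15 comparisons, and measure the spread between these lines. The other times and settings tried are listed with their effect in the closing section. The genes named were all 8, with up to 4 called genes per direction of each list and the 3 genes of the most similar pattern. The fit was tested on simulated data before use.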

Additional observations from a re-analysis of the deposited data

How the results depend on the processing

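The number of arrays and the single untreated array of each line limit the precision, and dim probes limit Gadd45b and Btg2. Of 13 alternatives that keep all lines, Gadd45a in sensitive lines passed in 12 at 16 h (1.25 to 1.67) and 12 at 24 h (1.47 to 1.96), Mdm2 at 24 h in 12 (0.55 to 0.77) and Ccng1 at 24 h in 11 (0.50 to 0.77), all with the same sign. Ccng1 missed with the second 24 h array alone and without the cell line term. Gadd45a and Gadd45b over all 4 lines at 24 h passed in 11 and 10, and Trp53inp1 at 8 h in 4 (-0.66 to -0.44). No result that was called changed sign under any alternative. The cell line ties the samples of a line together and is a term of the fit. Without that term ("no replicate block" for the line) 0 of the 6 genes passed in sensitive lines at 16 h and 24 h and over all 4 lines at 8 h and 24 h.

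The count of the 6 genes called in sensitive lines at 8 h was 0 and became 1 without background correction, with a normexp offset of 50, with the authors' values and with a gene's probes averaged. At 16 h it was 1 and became 2 under the same 4 and with the characteristic's times for 638bm VR. At 24 h it was 3 and became 5 with those times. The difference between classes at 24 h went to 1 with the column run as a term. Over all 4 lines at 8 h the count was 1 and became 0 without background correction, with the offset of 50, the authors' values, no filter, the mean of probes, either single 24 h array, or when 638bm VR lost its 16 h and 24 h arrays. Over all 4 lines at 24 h the count was 2 and became 4 with median scaling, without background correction, with the offset of 50, the authors' values and the first 24 h array alone, and 0 when 638bm VR lost those arrays. The cause was not tested. When 1 line was left out in turn, the counts ranged from 0 to 1 in sensitive lines at 8 h and at 16 h, 0 to 2 at 24 h, 0 to 1 in resistant lines at 2 h and for the difference at 24 h, and 0 to 2 over all 4 lines at 8 h and at 24 h. Untreated lines were not refitted this way, since 1 pair would remain.

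Median scaling shifted the median of all genes by 0.11 in resistant lines at 16 h and by 0.13, 0.14, 0.18 and 0.11 in the difference between classes at 2, 8, 16 and 24 h. It gave 114 higher and 532 lower genes in sensitive lines at 8 h against 259 and 334, 281 and 556 at 16 h against 545 and 477, 218 and 53 in resistant lines at 16 h against 76 and 77, and 238 and 76 at 24 h against 80 and 86. Over the 13 alternatives that keep all lines the count of all genes called ranged from 0 to 18 in sensitive lines at 2 h (6 as reported), 1 to 753 at 8 h (593), 2 to 1126 at 16 h (1022) and 150 to 2680 at 24 h (2566). In resistant lines it ranged from 0 to 228 (136), 0 to 705 (447), 0 to 271 (153) and 0 to 314 (166), for the difference at 16 h from 0 to 14 (0) and at 24 h from 0 to 495 (138). It ranged from 36 to 1856 (1576) and 127 to 2533 (2405) over all 4 lines at 8 h and 24 h, and from 191 to 305 (295) between untreated lines. The lowest counts came without the cell line term, apart from the difference at 16 h and the untreated lines. With 1 line left out the counts ranged from 2 to 26, 158 to 715, 308 to 940 and 1523 to 2525 in sensitive lines at 2, 8, 16 and 24 h, and from 0 to 380, 1 to 925, 0 to 340 and 0 to 329 in resistant lines. For the difference they ranged from 0 to 6, 0 to 8, 0 to 33 and 0 to 839 (839 without 638bm), and over all 4 lines from 202 to 1765 at 8 h and 501 to 2797 at 24 h.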
